A study of Homo sapiens with 18 samples.

Results

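The nuclear lamins, the lamina protein TMPO and the HMGB chromatin proteins were followed in the established glioblastoma line U87MG, of human origin, with and without Erastin, a small molecule that blocks cystine import through system Xc-. The 7 genes (LMNB1, LMNB2, LMNA, TMPO, HMGB1, HMGB2 and HMGB3) were chosen by symbol from the 58302 genes of the deposited count table, and each symbol matched 1 Ensembl gene. RNA-seq was available for 4 of the 18 samples of the series, 2 replicates of control cells under normal growth and 2 replicates of cells treated with Erastin (10 μM, 72 h). Nothing else in the labels separates the groups, and the labels name no vehicle for the control. The libraries held between 29412656 and 31513519 counts on genes. VIM and CD44, which are high in mesenchymal glioma lines, were expressed at 2515 and 1405 CPM in control cells (TMM-normalised counts scaled to a common library size), and the astrocyte gene GFAP was at 1.41 CPM. The neural genes SOX2 and S100B had at most 6 counts in any library. OLIG2, another glioma and neural marker, had 88 and 79 counts in control cells and 67 and 59 after Erastin. The progenitor gene NES, with 1277 and 972 counts in control cells, had 105 and 77 after Erastin. Of 10 markers of other cell types, PECAM1 had between 31 and 188 counts, and it was called lower after Erastin (log2 fold change −2.34). The leukocyte gene PTPRC had at most 1 count per library.

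Lamins are intermediate filament proteins that line the inner nuclear membrane. LMNB1 and LMNB2 encode the B-type lamins, which stay farnesylated and membrane-bound, and LMNA encodes lamins A and C through alternative splicing. TMPO encodes the LAP2 proteins, which tie the lamina to chromatin. HMGB1, HMGB2 and HMGB3 are abundant proteins that bend DNA through HMG boxes, and HMGB1 also acts as an alarm signal when it leaves the cell. Loss of lamin B1 and of nuclear HMGB proteins is widely used as a marker of senescent cells, and HMGB2 and TMPO are also genes whose transcripts rise in dividing cells. Gene-level counts cannot tell the isoforms of LMNA or TMPO apart.

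LMNB1 showed the largest change of the 7 genes. It fell 7.14-fold in Erastin-treated cells, whereas the other B-type lamin gene, LMNB2, was at 0.968 times its control level. HMGB2 fell 4.48-fold, TMPO 3.84-fold, HMGB3 2.40-fold and HMGB1 1.90-fold, and LMNA fell 1.23-fold. At a log2 fold change of −1 or less with an adjusted p under 0.05 from edgeR's quasi-likelihood test, 4 of the 7 genes were called lower (LMNB1, TMPO, HMGB2 and HMGB3) and 0 were called higher. The same rule called 9.34% of the 16751 tested genes lower and 6.24% higher. Without the threshold on the fold change, 6 of the 7 genes fell at an adjusted p under 0.05, beside 23.7% of all tested genes. Both Erastin libraries lay below both control libraries for these 6 genes, beside 36.9% of all tested genes, and above them for 0 genes, beside 36.7%. The smallest two-sided p of an exact permutation test is 0.333 at this sample number, and the edgeR p-values borrow a spread estimated over many genes.

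**Figure D1:**
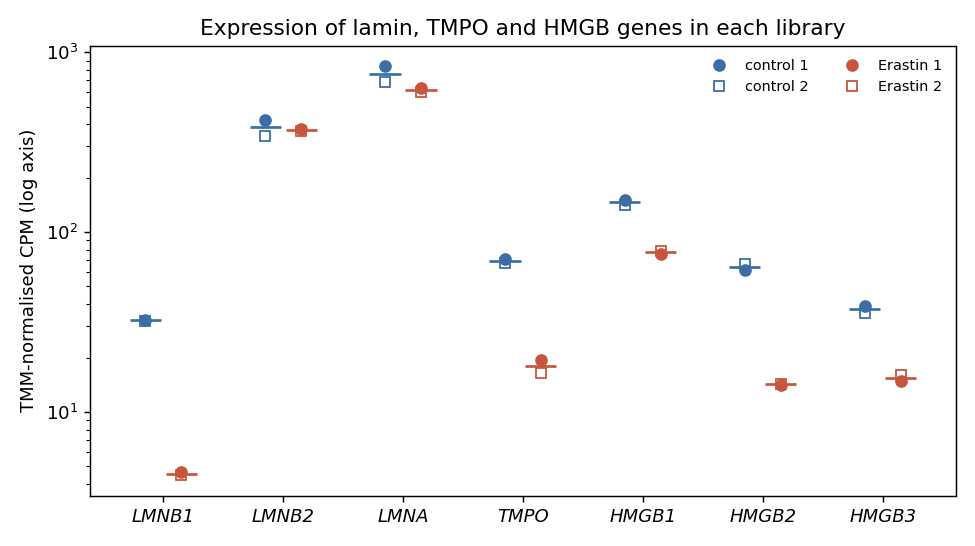
Expression of the 7 genes in each library as TMM-normalised CPM on a log axis, with circles for replicate 1, open squares for replicate 2 and short lines for group means (n = 2). The control and Erastin libraries overlap for LMNB2 and are separate for the other genes, most widely for LMNB1.

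Among the lamins, LMNB1 (ENSG00000113368; chromosome 5 of GRCh38, 126776623 to 126837020) had 997 and 1001 counts in the control replicates, against 138 and 140 after Erastin. Mean expression dropped from 32.4 ± 0.271 to 4.53 ± 0.112 CPM (mean ± SD over 2 replicates). The replicates of each group were almost equal and the groups lay far apart. The log2 fold change was −2.84 (standard error 0.129, 95% confidence interval −3.12 to −2.55, adjusted p = 1.01e-08 from edgeR). Among the 16751 tested genes, 1.39% had a more negative log2 fold change than LMNB1. No 31-base word of its exons recurred elsewhere on the reference chromosomes.

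LMNB2 (ENSG00000176619; chromosome 19, 2427638 to 2456996) had 12845 and 10718 counts in the control replicates, against 11265 and 11439 after Erastin. Both Erastin values lay between the control values, so the groups overlapped. Mean expression was 383 ± 53.1 CPM (SD, n = 2) without and 370.3 ± 8.88 CPM (SD, n = 2) with treatment. The log2 fold change of −0.05 had a 95% confidence interval from −0.23 to 0.14, which leaves room for a small change in either direction but excludes one as large as that of LMNB1 (adjusted p = 0.691 from edgeR). Without control replicate 1 the log2 fold change was 0.10, and without control replicate 2 it was −0.19, so its sign depended on which control library was kept. Exons of TIMM13, a gene on the same strand with 741 to 1018 counts, overlap those of LMNB2, and the counting skipped any read assigned to more than 1 gene.

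LMNA (ENSG00000160789; chromosome 1, 156082573 to 156140089) was the most highly expressed of the 7 genes, with 25582 and 21326 counts in the control replicates, against 18971 and 18897 after Erastin. The Erastin libraries were lower, but the control libraries differed from each other by more than the lower of them differed from the Erastin libraries. Mean expression went from 762 ± 106 to 618 ± 23.2 CPM (mean ± SD over 2 replicates), and the log2 fold change was −0.30 (95% confidence interval −0.49 to −0.11, adjusted p = 0.0131 from edgeR). The size of this small fall depended on the control library used. The log2 fold change was −0.15 without control replicate 1 and −0.45 without control replicate 2. Leaving out Erastin replicate 1 or 2 moved it less, to −0.34 or −0.26. With 1 library left in a group, the spread of that group is not measured.

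TMPO (ENSG00000120802; chromosome 12, 98515512 to 98550379) had 2181 and 2095 counts in the control replicates, against 586 and 519 after Erastin. The groups were well separated. Expression fell from 69.4 ± 2.75 to 18.1 ± 2.17 CPM (mean ± SD over 2 replicates), with a log2 fold change of −1.94 (95% confidence interval −2.17 to −1.71, adjusted p = 3.92e-08 from edgeR). The antisense gene TMPO-AS1 overlaps an exon of TMPO on the opposite strand and had 18 to 41 counts. The counting ignored strand, so reads shared by the pair were also skipped.

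**Figure D2:**
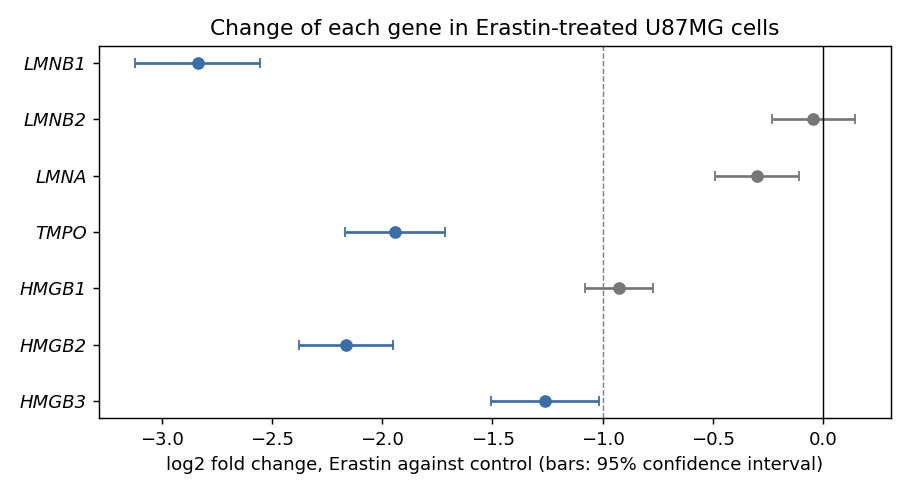
Log2 fold change of each gene in Erastin-treated against control cells, with bars for the 95% confidence interval and a dashed line at −1. The blue points LMNB1, TMPO, HMGB2 and HMGB3 were called lower, and the grey points LMNB2, LMNA and HMGB1 were not, with the interval of LMNB2 crossing 0.

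Among the HMGB genes, HMGB2 (ENSG00000164104; chromosome 4, 173331695 to 173335125) had 1892 and 2062 counts in the control replicates, against 425 and 453 after Erastin. Mean expression dropped from 64.1 ± 3.18 to 14.3 ± 0.147 CPM (mean ± SD over 2 replicates), with no overlap of the groups. Its log2 fold change was −2.16 (standard error 0.0977, 95% confidence interval −2.38 to −1.95, adjusted p = 9.31e-09 from edgeR). After LMNB1, this was the largest fall of the 7 genes.

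HMGB3 (ENSG00000029993; chromosome X, 150980509 to 150990775) had 1191 and 1107 counts in the control replicates, against 448 and 506 after Erastin, and its mean dropped from 37.3 ± 2.34 to 15.5 ± 0.796 CPM (mean ± SD over 2 replicates). All Erastin values lay below the control values. The log2 fold change was −1.26 (95% confidence interval −1.51 to −1.02, adjusted p = 2.48e-06 from edgeR). Its interval ended just beyond the threshold of −1, and HMGB3 was no longer called when edgeR's glmTreat tested the change against that threshold (adjusted p = 0.0617).

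HMGB1 (ENSG00000189403; chromosome 13, 30456704 to 30617597) had 4626 and 4430 counts in the control replicates, against 2264 and 2478 after Erastin. The groups did not overlap. Expression fell from 147 ± 6.14 to 77.3 ± 2.24 CPM (mean ± SD over 2 replicates). The log2 fold change of −0.93 (95% confidence interval −1.08 to −0.77, adjusted p = 7.33e-07 from edgeR) was a clear fall that stayed just short of the threshold of −1, so HMGB1 was not called.

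HMGB1 and HMGB3 have many processed pseudogenes, from which reads cannot always be told apart, and the counting skipped multi-mapping reads. Of the 31-base words in the exons of HMGB1, 28.9% recurred elsewhere on the reference chromosomes, and of its 100-base words 12.2% did. For HMGB3 these shares were 28.5% and 0.213%, and for TMPO they were 5.83% and 0%. For HMGB2 and the lamins the share of 31-base words was at most 1.71%. The level of HMGB1 is therefore uncertain. The table lists 48 pseudogenes of HMGB1, which together had 1100 and 1104 counts in the control replicates, against 533 and 571 after Erastin. Their sum stayed between 18.7% and 19.9% of the counts of HMGB1 and its pseudogenes in every library. The pseudogenes with most counts were HMGB1P6, which had 724 and 739 counts in control cells and 387 and 382 in Erastin-treated cells, and HMGB1P5, with 342 and 305 counts in control cells and 126 and 155 after Erastin. The 29 pseudogenes of HMGB3 had 57 and 83 counts in the control replicates, against 95 and 73 after Erastin, which is 4.57% to 17.5% of HMGB3 and its pseudogenes together.

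Levels were also compared between genes, as CPM per kilobase of annotated exons. In control cells LMNA was highest at 109 ± 15.2 CPM per kilobase (SD, n = 2), followed by LMNB2 at 70.4 ± 9.77, HMGB2 at 23.1 ± 1.15, HMGB1 at 19.0 ± 0.795, HMGB3 at 9.40 ± 0.591, LMNB1 at 8.92 ± 0.0746 and TMPO at 8.07 ± 0.320. HMGB3 and LMNB1 did not differ by more than the spread of HMGB3. In Erastin-treated cells the order was LMNA (88.5 ± 3.32 CPM per kilobase), LMNB2 (68.2 ± 1.63), HMGB1 (10.01 ± 0.291), HMGB2 (5.16 ± 0.0531), HMGB3 (3.92 ± 0.201), TMPO (2.101 ± 0.253) and LMNB1 (1.25 ± 0.0308). LMNB1 moved below TMPO to the lowest level of the 7 genes. The order of HMGB1 and HMGB2 in control cells is not settled, since it depends on reads counted on pseudogenes of HMGB1. Exon lengths count every annotated isoform, which lowers the level of genes with long rare exons.

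The make-up of each family shifted accordingly. Of the lamin counts per kilobase, LMNB1 took 4.35% and 5.20% in the control replicates, against 0.787% and 0.795% after Erastin. The share of LMNB2 was 37.5% and 37.2% without and 43.0% and 43.4% with treatment. LMNB2 thus already made up most of the B-type lamin signal in control cells, and nearly all of it after treatment. Inside each library, LMNB2 exceeded LMNB1 by a ratio of 8.62 and 7.16 in control cells and 54.6 in each Erastin library. The ratio of LMNA to LMNB1 was 13.3 and 11.1 in control cells and 71.5 and 70.2 in Erastin-treated cells, a rise of 5.80-fold in the mean. The ratio of HMGB2 to HMGB1 was 1.14 and 1.30 in control cells and 0.522 and 0.509 in Erastin-treated cells. When pseudogene counts were added to their parent genes it was 0.920 and 1.04 in control cells and 0.423 and 0.415 after Erastin, so the fall in the ratio was kept, but which of the pair was higher in control cells depended on those reads. The ratio of HMGB3 to HMGB1 moved from 0.501 and 0.486 to 0.385 and 0.398, and with pseudogene counts added from 0.424 and 0.419 to 0.378 and 0.370. Each of these ratios was separate between the groups, with or without pseudogene counts, for which the exact two-sided permutation test gives its smallest possible p of 0.333. Such ratios need no scaling between libraries.

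**Figure D3:**
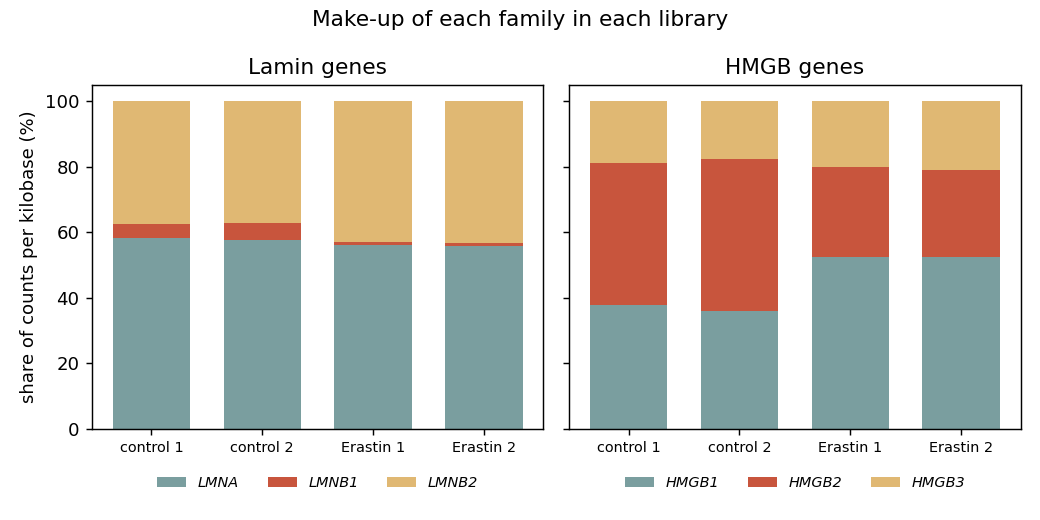
Share of each gene in the counts per kilobase of its family, in percent, for the lamin genes (left) and the HMGB genes (right) in each of the 4 libraries. The LMNB1 band shrinks from 4.35% and 5.20% (control) to 0.787% and 0.795% (Erastin). Reads counted on pseudogenes are not included in the HMGB shares.

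RefSeq windows of GRCh38.p14 from 250 bases before to 50 bases after a transcription start were found for 6 of the 7 genes, all but HMGB2, with 13 windows in all. They were searched on both strands for sequences linked to transcription in dividing cells, since 4 of the genes were called lower together. These were E2F sites (TTTCCCGC, TTTCGCGC, TTTGCCGC or TTTGGCGC), the cell cycle homology region or CHR (TTTGAA or TTCGAA) and the CCAAT box (CCAAT), none of which contains another. Of 35116 windows of the same length, 3.31% held an E2F sequence, 16.4% a CHR sequence and 34.6% a CCAAT box. The first listed windows of LMNB1, which fell most, and of LMNA, HMGB1 and HMGB3 are shown for contrast, from the first base of the window to the last before an annotated exon, on the strand of the gene, with matches in capitals. They are chr5:126776373-126776622 (plus strand) for LMNB1, chr1:156082323-156082572 (plus strand) for LMNA, chr13:30465966-30466186 (minus strand) for HMGB1 and chrX:150983085-150983285 (plus strand) for HMGB3.
LMNB1: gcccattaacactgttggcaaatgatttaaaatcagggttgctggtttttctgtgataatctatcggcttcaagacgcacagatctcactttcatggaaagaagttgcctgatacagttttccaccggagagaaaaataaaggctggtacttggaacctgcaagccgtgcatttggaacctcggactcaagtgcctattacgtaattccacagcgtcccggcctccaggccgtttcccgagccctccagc
LMNA: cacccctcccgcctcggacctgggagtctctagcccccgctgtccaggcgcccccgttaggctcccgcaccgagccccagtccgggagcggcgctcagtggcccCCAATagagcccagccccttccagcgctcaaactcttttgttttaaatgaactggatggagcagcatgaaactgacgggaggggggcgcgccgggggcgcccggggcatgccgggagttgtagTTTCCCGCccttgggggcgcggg
HMGB1: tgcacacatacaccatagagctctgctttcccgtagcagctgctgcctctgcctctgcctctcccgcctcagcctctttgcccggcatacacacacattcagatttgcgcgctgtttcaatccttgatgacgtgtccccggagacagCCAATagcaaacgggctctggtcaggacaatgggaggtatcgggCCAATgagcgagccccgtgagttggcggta
HMGB3: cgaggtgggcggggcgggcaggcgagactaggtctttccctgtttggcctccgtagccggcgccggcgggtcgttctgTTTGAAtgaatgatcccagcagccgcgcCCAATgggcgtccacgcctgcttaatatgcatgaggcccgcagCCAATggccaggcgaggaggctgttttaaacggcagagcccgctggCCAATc
The window of HMGB3 held 1 CHR sequence and 3 CCAAT boxes, and the printed part of the HMGB1 window held 2 CCAAT boxes. The window of LMNA, a gene that changed little, held 1 E2F sequence and 1 CCAAT box. The LMNB1 window held 0 matches, while a window at its other listed start held 1 CCAAT box. TMPO had 2 CCAAT boxes and LMNB2 had 1 CHR sequence in their first listed windows. Matching letters were thus found in genes that were called lower and in genes that were not, and they do not show that a factor binds there.

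Genes that work with these proteins were examined as lists. Of 19 tested partners in the nuclear envelope and lamina, 3 were called lower and 0 higher, beside 9.34% and 6.24% of all tested genes. At an adjusted p under 0.05, 7 fell and 2 rose, beside 23.7% and 23.2% of all tested genes. The median log2 fold change of the list was −0.11, beside −0.0026 over all tested genes. The called genes were SYNE3 (log2 fold change −2.04) and SYNE2 (−1.27), which encode nesprins of the nuclear envelope, and SUN2 (−1.19), which encodes an inner membrane protein that binds nesprins. Of the related genes in the list, SUN1 had a log2 fold change of −0.86 and was not called, and SYNE1 had a value of 0.17 (adjusted p = 0.0518 from edgeR). The 2 genes that rose at an adjusted p under 0.05, TOR1AIP1 (0.86) and TOR1AIP2 (0.73), were not called either. LBR, the lamin B receptor, fell from 55.7 ± 1.37 to 31.3 ± 1.47 CPM (mean ± SD over 2 replicates), a log2 fold change of −0.83 that did not reach the threshold (adjusted p = 1.30e-05 from edgeR). Of 6 enzymes that process lamin tails, 0 were called in either direction by edgeR. At an adjusted p under 0.05, 3 rose and 1 fell, beside 23.2% and 23.7% of all tested genes. The median log2 fold change of the 6 enzymes was 0.14, in a range from −0.28 to 0.94. Without control replicate 1, RCE1, which cleaves the end of farnesylated proteins, was called higher (log2 fold change 1.07).

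Among 11 tested kinases and caspases that act on the lamina, 5 were called lower and 1 higher, beside 9.34% and 6.24% of all tested genes. The median log2 fold change of the 11 genes was −0.88. The mitotic kinase gene PLK1 (−4.51), CCNB1 (−3.82) and CDK1 (−2.97), whose product phosphorylates lamins in mitosis, had the largest falls, followed by VRK1 (−1.25), which phosphorylates the lamina partner BAF. VRK3 was called higher, with a log2 fold change of 1.24.

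Of 11 other tested HMG proteins, 3 were called lower and 0 higher, beside 9.34% and 6.24% of all tested genes. At an adjusted p under 0.05, 6 fell and 1 rose, beside 23.7% and 23.2% of all tested genes. The median log2 fold change of the 11 genes was −0.30. The called genes were HMGA1 and HMGA2, which bind AT-rich DNA, and HMGN5, which binds nucleosomes. HMGA1 had 24572 and 19360 counts in the control replicates, against 4672 and 5450 after Erastin. This gave a log2 fold change of −2.11 (adjusted p = 2.55e-08 from edgeR), close to that of HMGB2. HMGA2 had 20741 and 22934 counts in control cells and 6820 and 8509 in Erastin-treated cells, a log2 fold change of −1.51. HMGN5 had a log2 fold change of −1.02 and was not called with library totals (−0.97), under glmTreat, without control replicate 2 (−0.98) or without Erastin replicate 2 (−0.97).

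Of 17 receptors and export factors of HMGB1, 10 could be tested and 3 were called lower, beside 9.34% of all tested genes. The 3 called genes were SIGLEC10, TLR2 and CD24, of which SIGLEC10 and TLR2 had at most 36 counts in any library. Only 1 was left when at least 10 counts were required in every library. Without control replicate 1, TLR2 was not called (adjusted p = 0.0898 from edgeR). The receptor gene AGER had at most 16 counts. Of 16 tested heterochromatin factors, 0 were called, and 8 fell at an adjusted p under 0.05, beside 23.7% of all tested genes. The median log2 fold change of the 16 genes was −0.31. CBX5, which encodes the heterochromatin protein HP1 alpha, had a log2 fold change of −0.59 (adjusted p = 1.84e-05 from edgeR). The count of 0 depended on single libraries, since DEK was called lower without control replicate 1 (−1.02), and DEK (−1.05) and SUV39H1 (−1.02) without Erastin replicate 2.

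Of 17 tested senescence markers, 7 were called higher and 1 lower, beside 6.24% and 9.34% of all tested genes. The median log2 fold change was 0.63. CDKN1A, the gene of the cell cycle inhibitor p21, rose from 216 ± 12.4 to 1161 ± 15.1 CPM (mean ± SD over 2 replicates), with a log2 fold change of 2.43 (adjusted p = 3.98e-10 from edgeR). The secreted factors GDF15 and CXCL8 rose by log2 fold changes of 2.90 and 2.65. CXCL1 had 2 and 0 counts in control cells and 10 counts in each Erastin library, and its call was lost under 10 of 13 alternatives, each library left out included. CCL2 was called lower, with a log2 fold change of −2.11. GLB1, the gene of the lysosomal enzyme behind senescence-associated β-galactosidase staining, rose by 0.38 on the log2 scale (adjusted p = 0.00378 from edgeR). The inhibitor genes CDKN2A and CDKN2B had 0 counts in every library, which allows up to 3 counts per library and covers counting error only. RNA counts cannot tell a silent gene from one missing from the genome of the line, which was not tested.

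**Figure D4:**
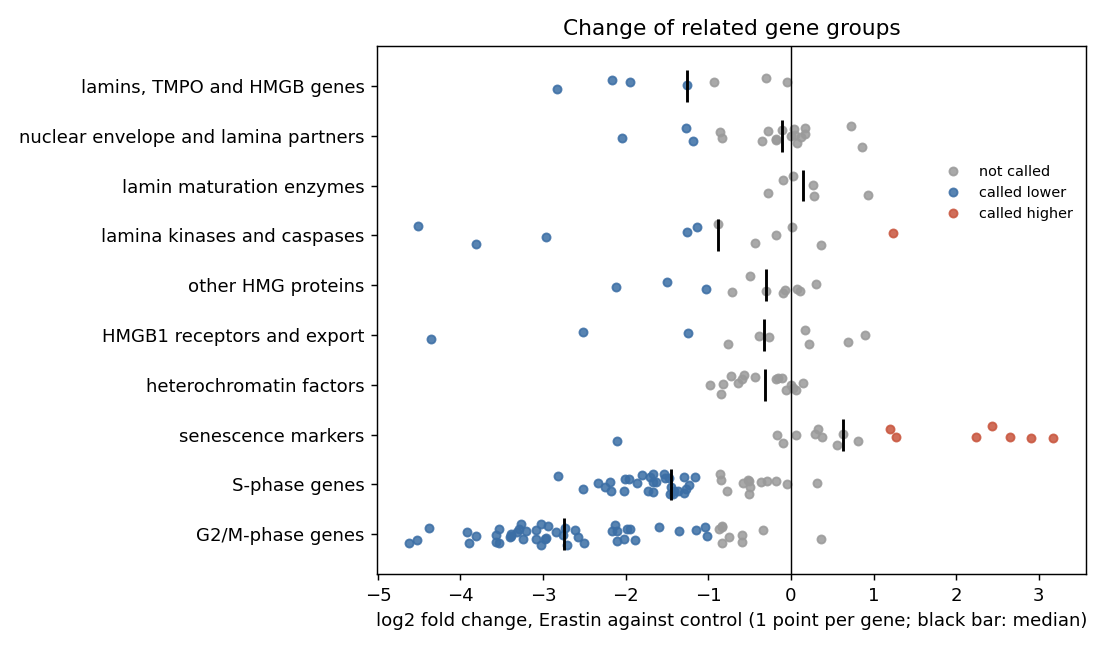
Log2 fold change of each tested gene in the 7 genes described here and in the related lists, with 1 point per gene, black bars for list medians and colours for calls. The senescence markers lie mostly above 0 with 7 genes called higher, whereas the S-phase and G2/M-phase genes lie almost entirely below 0.

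Markers of dividing cells were lower in the same libraries as LMNB1, TMPO, HMGB2 and HMGB3. Of the 43 S-phase genes distributed with the Seurat package, 30 were called lower and 0 higher. Of its 54 G2/M-phase genes, 45 were called lower and 0 higher. Over all tested genes, 9.34% were called lower and 6.24% higher. The summed level of the G2/M-phase list was 5894 to 6059 CPM without and 1889 to 1904 CPM with treatment, and its largest fall was that of CDC20 (log2 fold change −4.62). The largest fall of the S-phase list was that of CDCA7 (−2.83). UBR7, also among the 30 called S-phase genes, had 33 and 305 counts in control cells and 50 and 23 after Erastin. Its groups overlapped, and its call was lost under 4 alternatives, DESeq2 and glmTreat among them. Without control replicate 2 its log2 fold change was 0.14. TMPO and HMGB2 are themselves members of the G2/M-phase list. Without them, 43 of 52 genes were called lower, and the median log2 fold change of the 52 was −2.80. The part of this shift in the falls of these 4 genes was not tested, and in bulk samples fewer dividing cells and less RNA per cell cannot be told apart.

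The genes most like LMNB1 and HMGB2 were found by the root mean square difference of log2 CPM over the 4 libraries, each gene being centred on its control mean, among 9896 genes with a mean log2 CPM of at least 3. The genes most like LMNB1 were NR2F1, MYBL2, NDP, CCNA2 and GABRA3, at differences between 0.0270 and 0.0700 on the log2 scale. MYBL2 and CCNA2 encode a transcription factor and a cyclin of dividing cells, whereas NDP encodes a secreted protein and GABRA3 a neurotransmitter receptor subunit. The genes most like HMGB2 were AURKA, MAD2L1, CDCA3, FOXL1 and MYH15, at differences between 0.0254 and 0.0544. AURKA and MAD2L1 encode proteins of the mitotic spindle and its checkpoint. With 4 libraries in 2 groups, such likeness reflects mainly the size of the fall.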

How the data were processed

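RNA-seq was analysed in 4 libraries of U87MG cells, grouped by their labels. The authors deposited raw counts per gene without normalization. Per the file headers they were made by featureCounts 2.0.3 on the GRCh38 genes of Ensembl release 90, unstranded, counting both reads of a pair and skipping reads on several genes or places. The submitters' processing notes name HISAT2 2.1.0 and featureCounts 2.0.4, and the methods name htseq-count. None of the deposited values had the decimals of estimated counts.

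The quasi-likelihood test of edgeR 4.0.16 (R 4.3.3) was fitted to the 16751 genes kept by filterByExpr (minimum count 10), with TMM factors between 0.971 and 1.02. It was two-sided, with Benjamini-Hochberg adjustment over all tested genes. A call needed an absolute log2 fold change of 1 or more and an adjusted p under 0.05, the study's thresholds. Standard errors were derived from the F statistic.

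The genes, lists and tests were chosen with earlier results of these data known. Genes named beside the 7 were up to 4 called genes per list and direction with the largest change, fixed markers (LBR, CDKN1A, CDKN2A, GLB1, HMGA1, HMGA2, CBX5, VIM, GFAP, PTPRC), pseudogenes, overlapping genes and the 5 genes most like LMNB1 and HMGB2. AGER, CD44, CDKN2B, DEK, OLIG2, RCE1, S100B, SOX2, SUN1, SUV39H1, SYNE1, TOR1AIP1, TOR1AIP2 and UBR7 were named after their values were seen. The S-phase and G2/M-phase lists came from Seurat 5.3.0 and the others from general knowledge.

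Alternatives were DESeq2 1.42.0, RLE factors, library totals, no filter, a stricter filter (10 counts in each library), a replicate block, halved counts, glmTreat, pseudogene counts added to the parent gene, and leaving out each library. Reads carried no molecular identifiers, so totals overstate the precision. Nothing describes how the cultures of a group were kept apart, so p-values measure the spread between these samples. ChIP-seq and HiChIP data were not analysed here.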

Additional observations from a re-analysis of the deposited data

How the results depend on the processing

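The falls of LMNB1, TMPO and HMGB2 kept their direction and call under all 13 alternatives, and with each library left out their log2 fold changes lay between −2.86 and −2.81, −2.07 and −1.82, and −2.22 and −2.12. HMGB3 lay between −1.33 and −1.20 and HMGB1 between −0.98 and −0.89. For LMNA the range was −0.45 to −0.15 and for LMNB2 it was −0.19 to 0.10, where a group left with 1 library was assumed to vary like the other. With library totals, LMNB2 was at 0.0046. When glmTreat tested against a log2 fold change of 1, the estimates were unchanged, but LMNA (−0.30), HMGB1 (−0.93) and HMGB3 (−1.26, adjusted p = 0.0617) no longer passed, 3 of the 7 genes were called lower, and 5 list genes in place of 8 were called higher, among them 4 senescence markers in place of 7. This test asks for a larger change by construction. With pseudogene counts added, HMGB3 moved nearer the threshold, to a log2 fold change of −1.11, and was still called lower. In the same setting the log2 ratio of HMGB3 to HMGB1 between the groups moved from −0.34 to −0.17. The replicate block left 4 of the 7 genes called lower, with a log2 fold change of −2.84 for LMNB1, and changed no call of the 7 genes. The labels do not say whether libraries of the same number were paired. Deviations of same-numbered libraries from their group means correlated at 0.0203 over genes. With 2 libraries per group, that value cannot settle whether they were paired. Over all tested genes, glmTreat called 377 genes higher and 748 lower, in place of 1046 and 1564. Depth did not limit the 7 genes, whose lowest value was 138 counts, but lists of receptors held genes too low to test.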
